A study of Mus musculus with 6 samples.

Results

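The Id proteins, the E proteins and Myb form a small set of transcriptional regulators in developing T cells, represented here by 7 genes: Id1, Id2, Id3, Tcf3, Tcf4, Tcf12 and Myb. They were taken by gene symbol from a table of 22322 genes, and all 7 were present. The set was chosen by its cKO and control values in these same libraries, in that it was proposed with their differences known. RNA was sequenced from double-positive (DP) thymocytes, the CD4+CD8+ stage of the thymus, which were purified by flow cytometry. The control group comprised 3 libraries from untreated Paxbp1fl/fl mice, and the Paxbp1 cKO group comprised 3 libraries from untreated mice with the same floxed alleles and the Lck-cre transgene. All of these mice were on the C57BL/6 background, were of mixed sexes and were 4 to 7 weeks old. Paxbp1 encodes a nuclear protein that takes part in histone methylation in muscle progenitors, and the Lck promoter of the transgene drives Cre in thymocytes before the DP stage. Whether each library came from a separate mouse or from pooled mice was not stated, so the spread given here is the spread between libraries.

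E proteins are basic helix-loop-helix factors that bind E-box sequences as homodimers or heterodimers. Id proteins carry the same dimerization domain without the basic region, so they pair with E proteins and keep them from DNA. In the thymus, E proteins help to drive T lineage genes and rearrangement of the antigen receptor genes, and Id3 is induced by pre-TCR and TCR signals through Egr factors. Myb is an unrelated DNA-binding activator that DP thymocytes need for their survival and for rearrangement of the TCR alpha locus.

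The positions below are those of GENCODE genes of build GRCm38, matched by gene identifier, since the build used for counting was not stated. Id1 (ENSMUSG00000042745) lies at chr2:152736251-152737410 on the plus strand. Id2 (ENSMUSG00000020644) lies at chr12:25093799-25097140 on the minus strand. Id3 (ENSMUSG00000007872) lies at chr4:136143497-136145755 on the plus strand. Among the E protein genes, Tcf3 (ENSMUSG00000020167) lies at chr10:80409514-80433647 and Tcf12 (ENSMUSG00000032228) at chr9:71842688-72111871, both on the minus strand. The third is Tcf4 (ENSMUSG00000053477). Myb (ENSMUSG00000019982) lies at chr10:21124935-21160984 on the minus strand, where 6.26% of its exonic bases overlap an annotated antisense transcript that has no row in the table.

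RefSeq promoters (GRCm38.p6, 250 bases before to 50 after each start site) were searched on both strands for the general E-box CANNTG, for CAGGTG, the form of E-box that E proteins favour, and for GCGNGGGNG, an Egr-type sequence. Every CAGGTG match is also a CANNTG match. Of 32851 promoters, 72.3% held CANNTG, 20.2% held CAGGTG and 12.3% held the Egr-type sequence. Promoters of Id1 and Tcf4 were not searched, and 0 of the 5 other genes had CAGGTG in a promoter window. The Id3 window had 0 matches to CANNTG and 1 to the Egr-type sequence, at position -88 from the RefSeq start and within the 5′ UTR of a GENCODE transcript that starts further upstream. It is shown for Id3, beside the E-box of Id2 and those of 4 genes with known E protein input that are described further on, with the matched bases in capitals and each line read 5′ to 3′ on the strand of its gene. The Id2 line, like that of Id3, lies inside the GENCODE span of its gene, which for Id2 begins further upstream at base 25097140. A capital CACCTG is CAGGTG on the opposite strand.
Id3, Egr-type, chr4:136143724-136143753, plus strand: cccagggcggGCGGGGGTGgacccttggcg
Id2, CANNTG, chr12:25096271-25096300, minus strand: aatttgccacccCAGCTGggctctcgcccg
Rag1, CAGGTG, chr2:101649650-101649679, minus strand: ttcctgaagagcCAGGTGccagctggagct
Cd3e, CAGGTG, chr9:45009591-45009620, minus strand: gtggggttcagaCACCTGcctcccctgtct
Gfi1, CAGGTG, chr5:107725830-107725859, minus strand: caggcgggtcccCACCTGctgcagagcatc
Cd3g, CAGGTG, chr9:44980562-44980591, minus strand: ctcatcccctgcCACCTGctatcctgcaag
Cd3g, CAGGTG, chr9:44980449-44980478, minus strand: agagggcggagaCACCTGgtattgcctcta

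Total counts ran from 18963775 to 26252248 per library, and a single count corresponded to 0.0381 to 0.0527 CPM (counts per 1000000 counts of the library). Of 15349 genes with a count, 11488 passed the filter on low counts, and all 7 of the regulators were among them. The Paxbp1 counts were 774, 318 and 400 in control and 851, 905 and 1075 in cKO libraries. Its log2 fold change was 0.92 (SE 0.33, edgeR adjusted p = 0.0977, DESeq2 adjusted p = 0.0213), in the direction opposite to a loss of transcript. Only exon 8 is floxed and the counts are per gene, so these counts do not check the labels, and every direction below rests on the libraries labelled cKO.

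Among the Id genes, Id3 was the one with the clearest separation of the groups. Id3 measured 324.8, 319.0 and 342.2 CPM in control libraries 1, 2 and 3, against 162.5, 161.7 and 133.1 CPM in cKO libraries 1, 2 and 3. All cKO libraries lay below all control libraries, and the spread within each group was small. The means were 329 ± 12.1 CPM in control and 152 ± 16.8 CPM in cKO (SD, n = 3 each), so Id3 stood at 46.4% of its control level, with a log2 fold change of -1.11 (SE 0.12). In bulk RNA, fewer cells that express a gene and less of its RNA per cell cannot be told apart.

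Id2, the Id protein best known from NK cells and innate lymphoid cells, measured 71.9, 49.4 and 81.1 CPM in control and 43.4, 47.8 and 44.8 CPM in cKO libraries. The groups did not overlap, but control library 2 lay close to the cKO values. The means were 67.5 ± 16.3 and 45.3 ± 2.22 CPM (SD, n = 3), 67.1% of control, with a log2 fold change of -0.58 (SE 0.18). Id1, a target of BMP signals in many tissues, was low throughout, with 4.77, 5.14 and 5.51 CPM in control and 7.58, 3.85 and 4.11 CPM in cKO libraries. The Id1 groups overlapped, with cKO library 1 above and the other two cKO libraries below every control library, and its log2 fold change was 0.01 (SE 0.36). Id4 did not pass the filter, with 1, 0 and 0 counts in control and 22, 4 and 8 counts in cKO libraries.

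The E protein genes differed less between the groups than Id3 did. Tcf12, which encodes HEB, measured 615, 554 and 522 CPM in control and 447, 509 and 435 CPM in cKO libraries. The groups did not overlap, although control library 3 and cKO library 2 were near each other, and the log2 fold change was -0.28 (SE 0.12). Tcf3, which encodes the splice forms of the founding E protein, measured 315, 285 and 284 CPM in control and 249.9, 301 and 284 CPM in cKO libraries. These values overlapped, with a log2 fold change of -0.08 (SE 0.11). Tcf4, the E protein gene best known from plasmacytoid dendritic cells, was lower in level at 42.0, 40.0 and 37.6 CPM in control and 32.4, 40.5 and 30.8 CPM in cKO libraries. The Tcf4 groups overlapped through cKO library 2, and the log2 fold change was -0.21 (SE 0.16).

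Myb was abundant in every library, with 918, 609 and 660 CPM in control and 689, 732 and 737 CPM in cKO. The cKO values lay inside the range of the control values, which was set by a high control library 1. The means were 729 ± 165 and 719 ± 26.2 CPM (SD, n = 3), with a log2 fold change of -0.02 (SE 0.15).

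**Figure D1:**
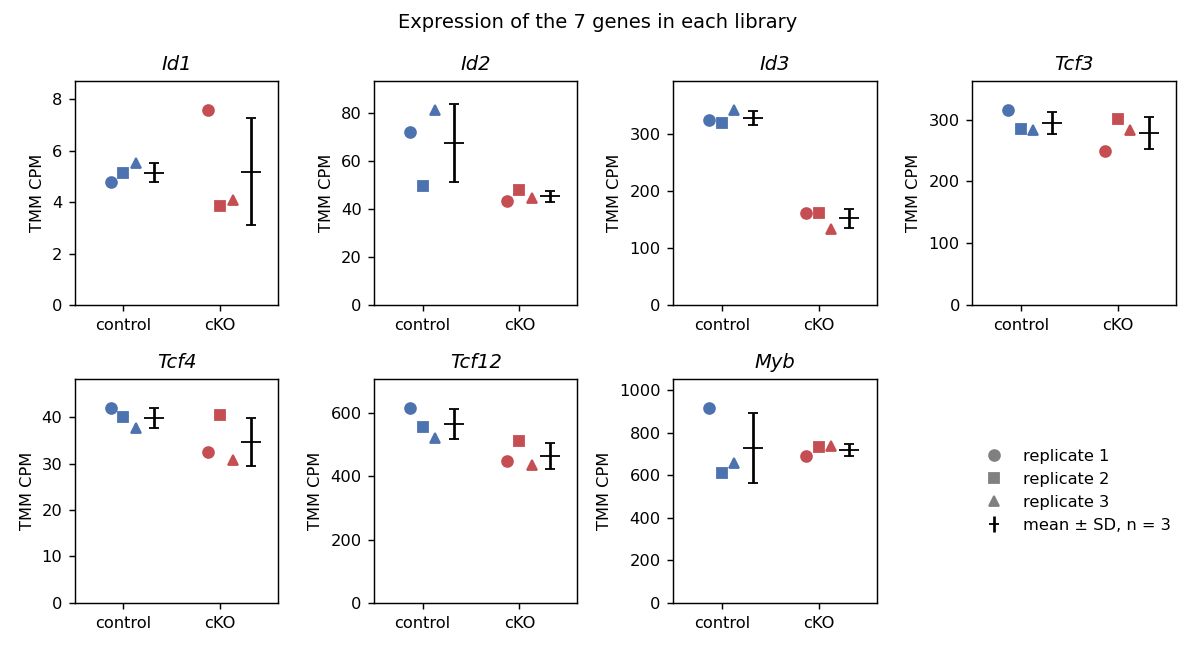
TMM-normalized CPM (vertical axes, from 0) of the 7 genes in the 3 control and 3 cKO libraries. Each point is a library, and the bar beside it is the group mean with its SD. Id3, Id2 and Tcf12 have groups that do not overlap, and Id3 shows the widest gap, from 319 to 162 CPM between the nearest libraries.

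These genes were proposed with this contrast known, so the count past a threshold is a description and was read no further. By edgeR, 1 of the 7 (Id3) had an adjusted p below 0.05, beside 10.4% of all tested genes. Id3 was also the 1 gene past a log2 fold change of 1, beside 2.76% of all tested genes (1.23% lower and 1.53% higher). DESeq2 called 2 of the 7, Id3 and Id2, and edgeR also called these 2 when control library 2 was left out. Groups did not overlap for 3 of the 7, beside 33.0% of all tested genes. The share of all tested genes called rested strongly on single libraries: it was 17.1%, 3.48% and 5.40% without control 1, 2 and 3, and 3.98%, 6.31% and 1.02% without cKO 1, 2 and 3. Id3 was called in all 13 alternative fits, with log2 fold changes between -1.16 and -1.02, and Id2 in 3 of 13, between -0.76 and -0.42. These fits reuse the same libraries, so a repeated call is no independent test of either gene.

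Levels of different genes were compared as the authors' FPKM, which is scaled by transcript length. In control cells Id3 stood first at 255 ± 8.15 FPKM, followed by Myb at 222 ± 53.8, Tcf12 at 164 ± 15.6, Tcf3 at 103 ± 7.76, Id2 at 52.7 ± 12.4, Tcf4 at 15.9 ± 1.41 and Id1 at 5.40 ± 0.265 FPKM (SD, n = 3). Id3 and Myb overlapped in range, and Id3 was above Myb in 2 of 3 control libraries, while no other neighbours in the order overlapped. In cKO cells Myb stood first at 222 ± 9.33 FPKM and Tcf12 second at 143 ± 12.9, ahead of Id3 at 120 ± 14.0 and Tcf3 at 98.2 ± 9.31 FPKM. Id2, Tcf4 and Id1 kept the last 3 places at 36.7 ± 2.09, 14.7 ± 2.40 and 5.44 ± 2.203 FPKM. Id3 and Tcf3 overlapped in range in cKO cells, but Id3 was above Tcf3 in 3 of 3 cKO libraries. The FPKM values of Tcf12 imply a transcript of 3148 to 3469 bases, against 15529 exonic bases in GENCODE. With GENCODE exonic lengths in place of the authors' lengths, Id3 ranked first in both groups.

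**Figure D2:**
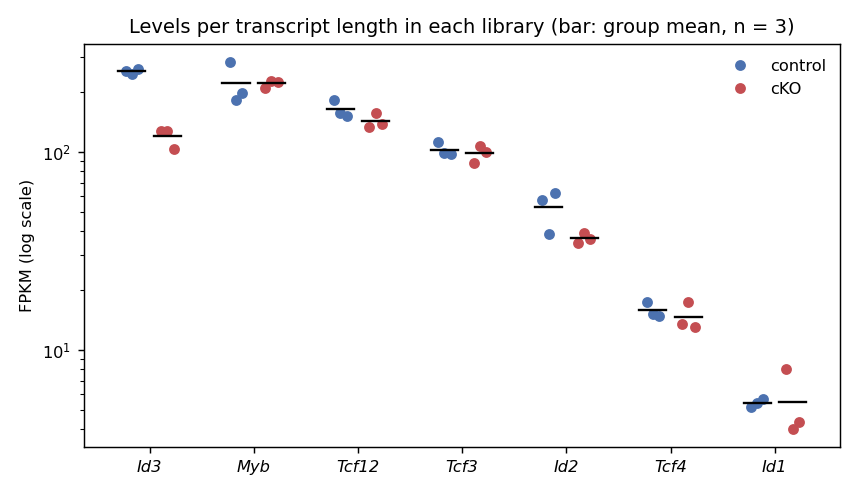
Levels in FPKM (log scale) of the 7 genes, ordered by control mean, with a point for each library and a bar for each group mean (n = 3). Id3 is first in control (mean 255 FPKM) and lies below Myb and Tcf12 in cKO libraries (mean 120 FPKM), while the other genes keep their order.

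Since Id proteins act by pairing with E proteins, the summed FPKM of Id1, Id2 and Id3 was set against that of Tcf3, Tcf4 and Tcf12. The Id sum was 314 ± 20.5 FPKM in control and 162 ± 15.4 FPKM in cKO cells, and the E protein sum was 283 ± 24.8 and 256 ± 23.7 FPKM (SD, n = 3). The Id genes made up 50.6%, 51.7% and 55.5% of the total in control libraries, against 42.1%, 37.8% and 36.6% in cKO libraries. The Id sum was above the E protein sum in every control library and below it in every cKO library. In CPM, which is not scaled by length, the mean Id share was 30.9% in control and 20.7% in cKO, so the crossing of the sums depends on the transcript lengths. Id3 supplied most of the Id sum, at 81.6% ± 2.86 in control and 73.9% ± 1.70 in cKO cells. The ratio of Id3 to Tcf12 in FPKM was 1.41, 1.56 and 1.72 in control and 0.961, 0.814 and 0.754 in cKO libraries. These are amounts of RNA, and protein was not measured.

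**Figure D3:**
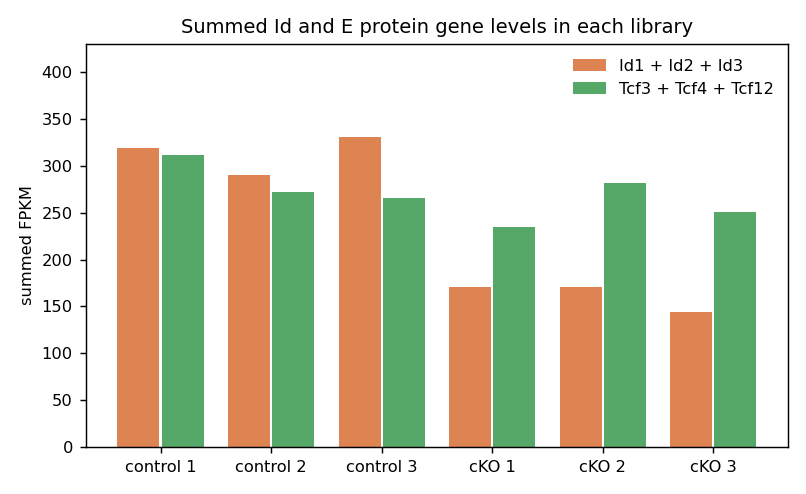
Summed FPKM (vertical axis, from 0) of the Id genes (orange) and of the E protein genes (green) in each library. The Id sum is the taller bar in the 3 control libraries and the shorter one in the 3 cKO libraries, where it runs from 144 to 171 FPKM.

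The genes with the most similar pattern over the 6 libraries were sought among 9205 genes with a mean of at least 5 CPM, by the root mean square difference of centred log2 CPM. For Id3 they were Vps8, an endosomal tethering factor (0.0739), Cd37, a tetraspanin (0.102), and Cd1d1, which presents lipids to NKT cells (0.113). For Id2 they were Gramd1b (0.0501), Armc7 (0.105) and Ncoa1 (0.112). For Tcf12 they were Mcrs1 (0.0350), Foxp1 (0.0387) and Srebf1 (0.0410), and for Tcf4 they were Srebf1 (0.0431), Kif21b (0.0447) and Fam172a (0.0457). For Tcf3 they were Eif4e2 (0.0259), Stk11ip (0.0288) and Uvrag (0.0321), for Myb Arap2 (0.0392), Chd1 (0.0413) and Prkd3 (0.0437), and for Id1 Amn1 (0.0594), Afmid (0.104) and Smyd1 (0.105). With 6 libraries, genes that share a group difference and little else are also close by this measure.

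Among the relatives and partners of the 7 genes, Hes1 was the one to pass the test. Of 4 tested relatives, 0 passed edgeR's test at an adjusted p below 0.05, while 1 had an unadjusted p below 0.05 and DESeq2 and limma-voom each called 0. Usp1, the enzyme that removes ubiquitin from Id proteins, measured 264 ± 29.99 CPM in control and 322 ± 18.7 CPM in cKO (edgeR adjusted p = 0.149). Mybl2, the proliferation-linked Myb relative, measured 70.2 ± 19.8 and 83.3 ± 11.9 CPM (edgeR adjusted p = 0.474). Mybl1 was near the detection limit at 0.692 ± 0.396 and 1.68 ± 0.663 CPM (edgeR adjusted p = 0.263). Of 16 bHLH, LMO and ETO partners of E proteins, 6 were tested and 1 rose, beside 4.47% of all tested genes. It was Hes1, the Notch target and bHLH repressor. Hes1 measured 9.44, 5.40 and 8.66 CPM in control and 72.8, 33.3 and 56.3 CPM in cKO libraries, with a log2 fold change of 2.79 (SE 0.31, edgeR adjusted p = 0.00349). The call for Hes1 held in all 6 fits that left out 1 library. Lmo1 and Nhlh1 had no counts in any library. Of 9 coactivators shared by E proteins and Myb, 0 passed edgeR's test, 1 had an unadjusted p below 0.05, and DESeq2 and limma-voom each called 0.

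Genes of DP thymocytes with known E protein input were lower in the cKO libraries more often than not. Of 18 such genes, all tested, 4 fell and 0 rose by edgeR, beside 5.89% of all tested genes that fell and 4.47% that rose, and 15 of 18 had a log2 fold change below 0. The median log2 fold change of the list was -0.29, beside 0.00 for all tested genes. Rag1, a subunit of the V(D)J recombinase, measured 2541, 2400 and 1951 CPM in control and 1115, 1540 and 1159 CPM in cKO libraries. The groups did not overlap, and Rag1 fell by 0.85 on the log2 scale (SE 0.15, edgeR adjusted p = 0.00923). Cd3e, a signalling chain of the TCR complex, measured 528, 629 and 626 CPM in control and 392, 401 and 378 CPM in cKO, and fell by 0.61 (SE 0.11, edgeR adjusted p = 0.0104). Gfi1, a zinc finger repressor of thymocyte genes, fell by 0.49 (SE 0.12, edgeR adjusted p = 0.0342), from 146 ± 5.49 to 104 ± 12.0 CPM. Cd3g, another chain of the complex, fell by 0.47 (SE 0.13, edgeR adjusted p = 0.0407), from 825 ± 98.8 to 595 ± 57.0 CPM.

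Other genes of the list did not pass. Rag2, the partner of Rag1, measured 209 ± 80.7 CPM in control and 162 ± 33.6 CPM in cKO (edgeR adjusted p = 0.36), and Ptcra, the pre-TCR alpha chain, 76.8 ± 23.1 and 61.9 ± 8.99 CPM (edgeR adjusted p = 0.385). Cd4 measured 266 ± 22.4 and 190 ± 32.1 CPM, just above the threshold at an edgeR adjusted p of 0.0515. Cdkn1a, a cell cycle inhibitor, went the other way at 6.48 ± 3.41 and 16.2 ± 5.95 CPM (edgeR adjusted p = 0.0569). DESeq2 called 7 genes of this list, adding Cd4, Socs3 and Cdkn1a. The count called by edgeR was 8 without control 1, 1 without control 2, 2 without cKO 1 and 0 without cKO 3, and Cd3g and Gfi1 each held the call in 1 of 6 such fits.

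Of the 18 genes, 15 had a promoter in the RefSeq table, and 8 of these had CAGGTG in at least 1 window. All 4 genes that fell were among the 8, as the printed windows show, and 4 of the other 11 were too. Counted by gene, CAGGTG was found for 20.5% of 9160 tested genes with a promoter, for 25.4% of 531 genes that fell and for 15.6% of 411 genes that rose. Genes with several start sites have more windows in which a match can occur, and a match is not evidence of binding.

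Genes of the TCR and Egr route that passed the test were higher in the cKO libraries. The route was listed as lying upstream of Id3, but the list also holds readouts of TCR signals. Of 18 genes of the TCR and Egr route, 17 were tested, and 4 rose and 0 fell by edgeR. Among all tested genes 4.47% rose and 5.89% fell. The median log2 fold change of the list was -0.01. Junb, an AP-1 subunit, rose by 1.19 on the log2 scale (SE 0.20, edgeR adjusted p = 0.00872), from 649.8 ± 151 to 1479 ± 371 CPM. Nr4a1, the nuclear receptor used as a readout of TCR signals, measured 607, 373 and 504 CPM in control and 2141, 871 and 1560 CPM in cKO libraries (log2 fold change 1.62, SE 0.29, edgeR adjusted p = 0.0093). Fosb, another AP-1 subunit, rose by 2.59 (SE 0.59, edgeR adjusted p = 0.0231) from 4.11 ± 1.33 to 24.8 ± 23.2 CPM, with most of the spread from cKO library 1. Its call was lost with limma-voom and held in 2 of the 6 fits that left out 1 library. Cd69, an activation marker, rose by 1.47 (SE 0.37, edgeR adjusted p = 0.0344), from 159 ± 40.9 to 443 ± 247 CPM, and its groups overlapped.

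The Egr genes, which carry TCR signals to Id3, did not pass the test. Egr1 measured 39.3, 35.8 and 35.3 CPM in control and 47.4, 37.4 and 42.4 CPM in cKO libraries, overlapping, with a log2 fold change of 0.20 (SE 0.15, edgeR adjusted p = 0.413). Egr2 was low and variable at 3.01, 7.87 and 5.90 CPM against 7.53, 0.417 and 2.58 CPM (edgeR adjusted p = 0.614), and Egr3 had at most 7 counts in a library and was not tested. Cd5, whose level follows TCR signal strength, measured 143 ± 16.4 and 142 ± 16.1 CPM (edgeR adjusted p = 0.985). The 4 calls of the list became 5 without control 1, 2 without control 2, control 3 or cKO 1, and 0 without cKO 3.

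**Figure D4:**
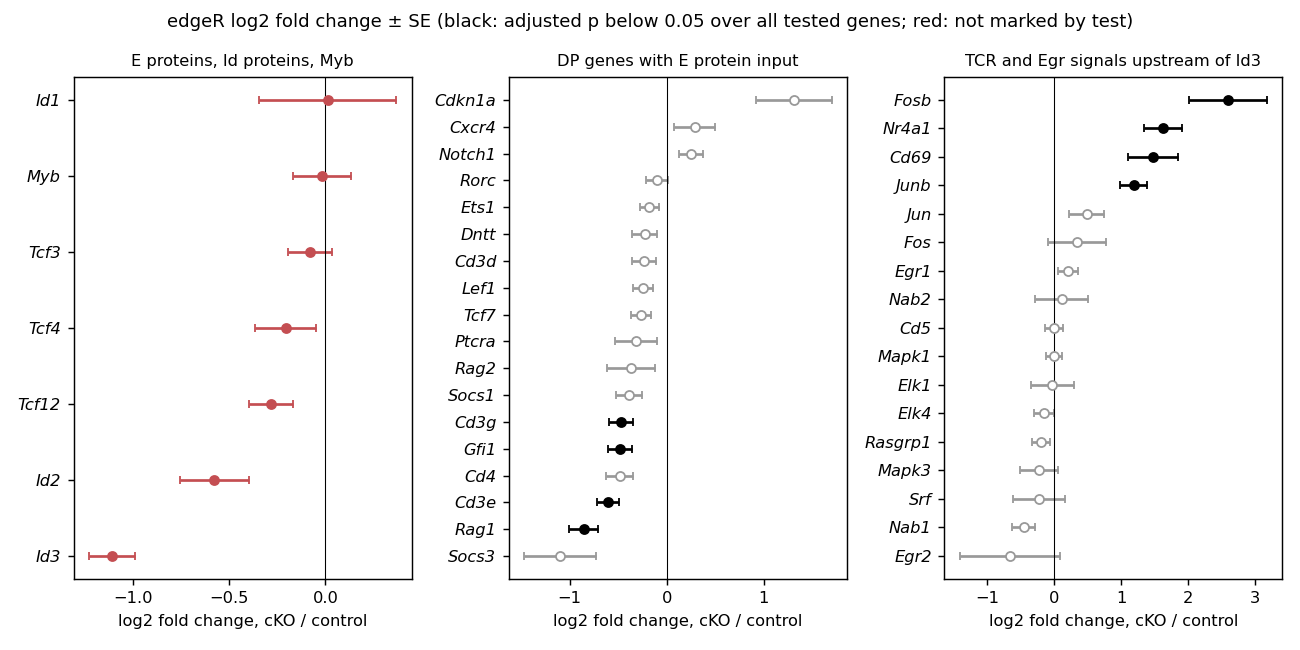
Log2 fold change of cKO over control with its SE (horizontal axes, each panel with its own scale) for the 7 genes, for 18 genes with known E protein input and for 17 tested genes of the TCR and Egr route. Black points passed edgeR's test at an adjusted p below 0.05, open grey points did not, and the 7 genes in red carry no test mark. Most E protein input genes lie left of 0, with 4 black points there, while the 4 black points of the TCR and Egr route lie right of 0.

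BMP and TGF-beta signals, which act upstream of Id1, Id2 and Id3, had 16 of 19 genes tested and 0 called by edgeR, with 3 at an unadjusted p below 0.05, and DESeq2 and limma-voom each called 1. The nearest to the threshold was Tgif1, a SMAD corepressor, with 107, 34.7 and 43.6 CPM in control and 241, 78.0 and 277 CPM in cKO libraries (edgeR adjusted p = 0.0509). Smad1, a BMP effector, measured 21.6, 43.2 and 48.3 CPM against 22.8, 21.6 and 20.1 CPM (edgeR adjusted p = 0.075). Its control library 1 lay with the cKO libraries. Among 10 genes with known Myb input, 0 were called by edgeR, 4 had an unadjusted p below 0.05, and DESeq2 and limma-voom each called 1. Bcl2l1, the survival gene of DP thymocytes, measured 923, 689.7 and 648 CPM in control and 505, 660 and 517 CPM in cKO libraries, with a log2 fold change of -0.43 (SE 0.16, edgeR adjusted p = 0.112). The median log2 fold change of the Myb input list was -0.28.

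Markers of the sorted population and of other cells were read beside these values. The counts called here and in the next paragraph stand beside 4.47% of all tested genes that rose and 5.89% that fell. All 12 DP markers, Cd4, Cd8b1 and Rag1 among them, were well expressed, and 3 of them fell, Rag1, Cd3e and Cd8b1, while all 12 had log2 fold changes below 0. Their summed level was 14770 to 16850 CPM in control and 11110 to 13000 CPM in cKO libraries. Of 18 cell cycle genes 7 rose and 0 fell. The most changed were Mcm4, which rose by 1.10 on the log2 scale (edgeR adjusted p = 0.00408), Mcm3 by 1.05 and Mcm5 by 1.03 (edgeR adjusted p = 0.00825 each). The summed level was 5403 to 8479 CPM in control and 8879 to 11550 CPM in cKO. Of 12 markers of DN and ISP thymocytes, the stages before DP, 9 were tested and 3 rose, Hes1, Il2ra and Dtx1. By sign, 6 of the 9 had log2 fold changes above 0 and 3 below. The sums were 105 to 137 CPM in control and 146 to 216 CPM in cKO libraries. Much of their difference came from Hes1 alone, with means of 7.83 CPM in control and 54.1 CPM in cKO. Of 12 markers of late DP and single-positive cells, 10 were tested and 1 rose (Cd69), and Zbtb7b was at 0 in every library. Of the 10, 3 had log2 fold changes above 0 and 7 below, with a median of -0.35. The sums of the 12 markers were 995 to 1177 CPM in control and 899.5 to 1459 CPM in cKO libraries.

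Summed levels of the macrophage markers and of the NK and innate lymphoid markers were low and were higher in the cKO libraries. Of 14 macrophage markers, 11 were tested and 5 rose, with sums of 20.4 to 37.1 CPM in control and 61.0 to 85.6 CPM in cKO. Adgre1 was at 0 in all control libraries and had 50, 42 and 52 counts in cKO libraries, and Mertk was at 0 throughout. Of 13 NK and innate lymphoid markers, cells in which Id2 is high, 6 were tested and 2 rose, Gzma by 1.41 (edgeR adjusted p = 0.00825) and Rora by 1.598 on the log2 scale (edgeR adjusted p = 0.00915). Their sums were 46.1 to 96.2 CPM in control and 160 to 194 CPM in cKO, and Klrb1c was at 0 throughout. Of 14 dendritic cell markers, cells in which Tcf4 is high, 8 were tested and 1 rose (Bst2), with Clec9a at 0. The sums, 1259 to 1559 CPM in control and 1040 to 1354 CPM in cKO, came mostly from Ccr9, which DP thymocytes also express (1370 and 1120 CPM). For B cells 3 of 10 markers were tested and Cd79b fell, and the sums, 948 to 1299 CPM in control and 872 to 911 CPM in cKO, came mostly from Ighm. For gamma delta and NKT cells 5 of 10 were tested and Il17a was at 0, with sums of 201 to 276 and 206 to 232 CPM. Cd1d1, which presents lipids to NKT cells, was the 1 gene of the 5 that fell. The other 4 had log2 fold changes above 0 with 0 called, and the median of the 5 was 0.68. For thymic epithelial cells 6 of 10 were tested and Krt5 was at 0, with sums of 30.7 to 37.8 and 58.6 to 87.0 CPM. Cd74 was the 1 gene of the 6 that rose, and the other 5 were not called. Endothelial, neutrophil and erythroid lists had 2, 1 and 5 tested markers with 0 called by edgeR, by DESeq2 or by limma-voom and 0 at an unadjusted p below 0.05, and Kdr, Tek, Tie1, Emcn, Ly6g, Mpo, Elane and Retnlg were at 0. Without cKO 3, no marker call remained but those of Hes1, Mcm4, Adgre1, Cd1d1 and Cd74. The part of these cell types and of the cell cycle difference in the values of the 7 genes was not tested.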

How the data were processed

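RNA-seq libraries of sorted DP thymocytes were compared between 3 control and 3 Paxbp1 cKO libraries, grouped by the genotype in the labels. The deposited table gives raw counts per gene and library and the authors' FPKM, which is scaled by transcript length and depth, and 2 columns of the authors' group means. Its log2 ratio, p-value and FDR columns hold the authors' own comparison (DESeq2 in the study's methods) and were not used. The submitters' processing notes name fastp 0.18.0, Bowtie2 2.2.8, HISAT2, StringTie 1.3.1 and RSEM. The sources used here give neither genome build nor annotation, nor whether counting used strand. The study's texts do not settle the kit either, since the labels and the methods name different library kits, both with cDNA amplification. Without molecular identifiers, counts include amplified copies.

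Counts were filtered with filterByExpr (minimum count 10, minimum total 15), scaled by TMM and tested with edgeR 4.0.16's quasi-likelihood test in R 4.3.3 (limma 3.58.1), with Benjamini-Hochberg adjustment over 11488 genes and a threshold of 0.05. CPM values are scaled by TMM. On simulated counts for 11275 genes, 153 of 195 changed genes were called, along with 12 unchanged ones. Depth was 18963775 to 26252248 counts per library. No 2 libraries of the same group were duplicates, and pairs across the groups were not checked.

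The genes and lists were chosen with earlier results of these data known, so the 7 genes' differences are described without p-values. Named were the 7 genes, Paxbp1, 3 relatives (Id4, Mybl1 and Mybl2), up to 6 called genes in each pathway list, in marker lists the genes at 0 and up to 3 called genes with the greatest change, and the 3 genes most like each of the 7. Other genes were named after their values were seen. Alternatives were DESeq2 1.42.0, limma-voom, RLE factors, total counts alone, no filter, a mean of at least 5 CPM, a replicate block and leaving out each library. No genome sequence was read, and the promoter windows are those of the RefSeq table.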

Additional observations from a re-analysis of the deposited data

How the results depend on the processing

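In the 13 alternatives the log2 fold changes of the 7 genes moved by at most 0.0722 (Tcf3) to 0.38 (Id1), within the pooled SD of log2 CPM inside the groups. For Id1 the margin was narrow (0.3804 against 0.3812, without cKO 1), and Id1, Id2 (without control 2) and Myb (without control 1) moved past their SE. Those of Id1 (-0.37 to 0.18) and Myb (-0.14 to 0.18) took both signs, while the other 5 stayed below 0. Genes called among the 7 numbered 2 with DESeq2 and 2 with no filter on low counts, and 1 to 2 when a library was left out. Over all genes, 943 in place of 514 were higher by DESeq2. Leaving out a library moved the higher count between 42 (without cKO 3) and 1000 (without control 1), and the lower count, 677 with all libraries, between 78 and 1030 for the same libraries. The E protein input list had 7 calls with DESeq2, 7 with no filter, and 0 to 8 when a library was left out. The Myb input list had 1 call with DESeq2, 1 with limma-voom, 1 with no filter, 1 with the 5 CPM filter, and 0 to 1 without a library. The TCR and Egr list had 0 to 5 calls without a library and 3 with limma-voom. The BMP and TGF-beta list had 1 call with DESeq2, 1 with limma-voom, 1 with RLE factors, 1 with the 5 CPM filter, 2 with no filter, and 0 to 2 without a library. The Id share was 30.9% in control and 20.7% in cKO in CPM, with or without TMM. Id3 ranked 1 in cKO with GENCODE exonic lengths. Except for the lengths and the left-out libraries, the cause was not tested.

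The replicate numbers of the labels did not pair the libraries: same-numbered deviations from the group means correlated at 0.0451, 0.0377 and -0.03, and control 2 correlated best with cKO 3 (0.0401). A replicate block gave 7 calls in the E protein input list, 3 in the TCR and Egr list (without Fosb), 1 in the Myb input list and 1 in the BMP and TGF-beta list, and 10.8% of all tested genes called.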
